A study of Homo sapiens with 27 samples.

Results

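A pair of 22Rv1 cell populations, each carrying a different CRISPR guide RNA against RIPK2, was compared across all expressed genes. The comparison took 6 of the 27 libraries of the series: 3 from cells with RIPK2 gRNA 1 and 3 from cells with RIPK2 gRNA 10. Both populations are labelled RIPK2 knockout. 3 further libraries from 22Rv1 cells with a control guide, labelled WT, entered the fit and are given as a reference level. 22Rv1 is an established human prostate carcinoma line with luminal epithelial features. No treatment, medium or time is given in the labels, nor are the guides' target sites or whether each population grew from 1 cell. Nor do they say whether the replicates were separate cultures, so the p-values below measure only the spread between these libraries, which may be technical. Of 24379 gene symbols in the count table, 15198 passed the filter on low counts and were tested.

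A guide RNA directs the Cas9 nuclease to a chosen site, where imprecise repair of the cut can disrupt the gene. RIPK2 is the kinase that passes signals from NOD1 and NOD2, intracellular sensors of bacterial peptidoglycan, to NF-kB and the stress kinases. Guides against 1 gene are usually paired so that effects of the gene can be set apart from those of a single guide or population. Here the guides were compared with each other, which asks what separates knockout populations of 1 line.

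Library totals ran from 17958558 to 19417954 counts in the RIPK2 populations. Levels are given as CPM, counts per 1000000 after scaling by TMM factors, and 3 counts correspond to 0.154 to 0.178 CPM. All 11 markers of the line's luminal identity were present in all 9 libraries and summed to 2269 to 2331 CPM with gRNA 1, 2880 to 2925 with gRNA 10 and 2839 to 2897 in the control. The basal markers KRT5 and KRT14 were at 0 in every RIPK2 library, and the 3 endothelial markers never exceeded 3 counts. In bulk RNA, fewer cells making a transcript and less transcript per cell cannot be told apart. The gRNA 1 library that the titles number as replicate 3 (library number 4 in its name) stood apart: 16.65% of its counts were mitochondrially encoded, against 2.10% and 1.92% in its replicates and 1.81 to 2.06% with gRNA 10. Its log2 CPM correlated across genes with replicates 1 and 2 at Pearson's r of 0.973 and 0.975, where all other pairs within a RIPK2 population reached 0.998. Fold changes, bounds and counts of called genes are therefore given with and without it.

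RIPK2 transcript differed between the populations. Counts were 177, 154 and 140 with gRNA 1 and 108, 104 and 101 with gRNA 10, against 296, 338 and 301 in the control. All RIPK2 libraries lay below the control, and the 3 gRNA 10 libraries lay below the 3 gRNA 1 libraries. The level was 8.69 ± 0.633 CPM with gRNA 1 (SD, n = 3) and 5.38 ± 0.189 CPM with gRNA 10, with an edgeR log2 fold change of 0.69 (SE 0.12, adjusted p 0.00134) and of 0.71 without replicate 3 (gRNA 1 minus gRNA 10 throughout, so positive values are higher with gRNA 1). NOD1, the sensor of meso-diaminopimelic acid, was higher with gRNA 1, at 9.47, 9.19 and 13.4 CPM against 4.08, 3.41 and 3.81, with an edgeR log2 fold change of 1.50 (SE 0.18, adjusted p 0.000103) and of 1.29 without replicate 3. NOD2, the muramyl dipeptide sensor, had 0 counts in all 6 libraries, an upper limit of 3 counts each. RBCK1, a subunit of the linear ubiquitin ligase that acts on the RIPK2 complex, was higher with gRNA 1 at 0.78 (0.60 without replicate 3). MAP3K7, the kinase TAK1 that acts downstream of RIPK2, was lower at -0.43 (-0.37 without replicate 3). MAP2K7, which activates the JNK kinases, was at 63.0, 63.2 and 76.7 CPM with gRNA 1 and 80.8, 80.9 and 81.7 with gRNA 10; its log2 fold change of -0.26 had an edgeR adjusted p of 0.0747, and without replicate 3 it was -0.38 with 0.00253 (without control replicate 2, 0.0492). Over the 31 tested genes of NOD and RIPK2 signalling, 6 were higher with gRNA 1 and 3 with gRNA 10 (6 and 5 without replicate 3); of all genes tested, 35.6% were called (45.1% without replicate 3).

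A large part of the expressed genome separated the populations. With all libraries, 5410 of 15198 genes (35.6%) passed an edgeR adjusted p of 0.05, 2864 (18.8%) higher with gRNA 1 and 2546 (16.8%) higher with gRNA 10. At least 2-fold differences were found for 1981 genes (13.0%), 1323 higher with gRNA 1 (8.71%) and 658 with gRNA 10 (4.33%). Without replicate 3 of gRNA 1, 6940 of 15380 genes (45.1%) passed, 3391 higher with gRNA 1 (22.0%) and 3549 with gRNA 10 (23.1%). Of these, 1966 (12.8% of genes tested) differed by at least 2-fold, 1153 (7.50%) and 813 (5.29%). Called in both fits, each gene in 1 direction, were 5166 genes (34.0%; 17.4% higher with gRNA 1 and 16.6% with gRNA 10), 95.5% of the calls with all libraries and 74.4% of those without replicate 3. The 3 and 3 libraries did not overlap in CPM for 8213 genes (54.0%; 26.8% with gRNA 1 above and 27.2% with gRNA 10 above). Of the 2-fold differences, 66.8% were higher with gRNA 1 with replicate 3 and 58.6% without it. For every gene given library by library below, except FOSB and INSIG1, the 3 and 3 libraries did not overlap.

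**Figure D1:**
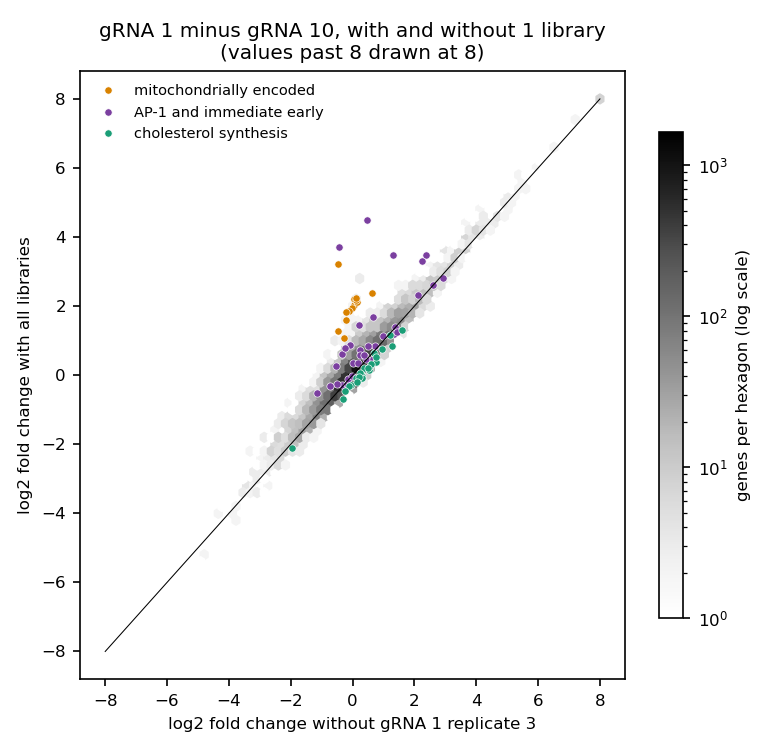
Log2 fold change of gRNA 1 minus gRNA 10 for each tested gene, with all 9 libraries (vertical axis) and without gRNA 1 replicate 3 (horizontal axis); grey hexagons count genes on a log scale and the line marks equal values. Most genes lie along the line, while the 13 mitochondrially encoded genes (orange) and FOS, FOSB and EGR1 among the immediate early genes (purple) lie above it and most cholesterol synthesis genes (green) below it.

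The 10 genes furthest higher with gRNA 1 were, in order, CD69, HOXD8, SSPN, CFC1, NEFL, AFAP1-AS1, POU3F3, LRP4, AGTR1 and NCAN. All 20 genes of the extremes, 10 in each direction, kept their call and direction in each of 323 values from the alternatives. They were chosen for large folds and for being called with and without replicate 3. The outcome was thus largely set by the choice and is no separate support. Genes not tested under an alternative, such as those near absent in 1 population under a stricter filter, gave no value there. In 5 genes the gRNA 10 libraries held at most 3 counts while gRNA 1 averaged at least 100; these include CD69, HOXD8, CFC1 and NEFL. Such genes passed the filter through the population where they were high.

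CD69, a membrane protein best known as an early activation marker of lymphocytes, had 2927, 2771 and 2111 counts with gRNA 1. No read was counted in any gRNA 10 or control library, so the level with gRNA 1 was at least 929-fold higher (987-fold without replicate 3). The leukocyte marker PTPRC had at most 2 counts in any RIPK2 library and CD3E had 0. Of the others, CD79A reached 7 counts, LYZ 5 and CD14 27. CD14 was at 0.426 to 0.654 CPM with gRNA 1, 0.671 to 1.39 with gRNA 10 and 0.860 to 0.911 in the control. SSPN, sarcospan of the dystrophin complex, stood at 6298, 5665 and 3997 counts against 14, 19 and 15, with an edgeR log2 fold change of 8.46 (SE 0.25, adjusted p 6.03e-09) and of 8.58 without replicate 3. The control held 5, 12 and 3 counts, so gRNA 1 was the population that stood apart for both genes. Both lie on chromosome 12, CD69 at chr12:9752486-9760901 and SSPN at chr12:26121991-26234777 (GRCh38). Beside CD69, CLEC2D was not called, with a log2 fold change of 0.68 (0.25 without replicate 3), and GABARAPL1 on the other side was called higher with gRNA 10 at -0.65 (-0.88 without replicate 3). Beside SSPN, RASSF8 was not called, at -0.03 (0.16 without replicate 3), and ITPR2 on the other side was called higher with gRNA 1 at 0.67 (0.88 without replicate 3).

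A stretch of the HOXD cluster and the POU3F3 locus, both on chromosome 2, showed another order, with gRNA 10 as the low population. HOXD8, a homeobox transcription factor of body axis patterning, had 235, 243 and 255 counts with gRNA 1, 126, 109 and 87 in the control and 0, 0 and 1 with gRNA 10, at least 87.9-fold higher with gRNA 1 (82.8-fold without replicate 3). Its neighbour HOXD9 had 191, 195 and 170 against 4, 7 and 6 counts, with an edgeR log2 fold change of 5.10 (SE 0.21, adjusted p 5.08e-08) and of 5.10 without replicate 3. HOXD-AS2, an antisense transcript on the other side of HOXD8, had 56, 58 and 56 counts with gRNA 1 and 0 in each gRNA 10 library, at least 20.3-fold higher with gRNA 1 (19.8-fold without replicate 3). POU3F3, a POU domain factor of neural and kidney development at chr2:104853276-104927773, had 541, 529 and 679 counts with gRNA 1, 559, 556 and 597 in the control and 7, 7 and 9 with gRNA 10, with an edgeR log2 fold change of 6.34 (SE 0.21, adjusted p 1.74e-08) and of 6.14 without replicate 3. PANTR1, a non-coding transcript whose annotated end lies 93 bp from POU3F3, had 37, 35 and 34 counts with gRNA 1 and 0 in each gRNA 10 library, at least 12.7-fold higher with gRNA 1 (12.5-fold without replicate 3). MRPS9 on the other side of POU3F3 was not called, at 0.16 (0.05 without replicate 3). At both loci the control libraries lay far above those of gRNA 10. Strand use in the counting is not given in the sources used here, so overlapping sense and antisense reads may not be separated.

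For 4 of these genes the 250 bases before the start in RefSeq's promoter table are shown, since a neighbour on each side of HOXD8 and PANTR1 beside POU3F3 differed in the same direction, while at PDZD7 the genes beside it differed far less. HOXD8 and POU3F3 were near absent with gRNA 10, while ITGA8 and PDZD7, described below, were high with gRNA 10. Sequences are from RefSeq on GRCh38.p14, 5′ to 3′ on the gene's strand. Capitals mark CpG dinucleotides, the sites of DNA methylation in mammals. They lie at chr2:176129455-176129704, plus strand for HOXD8, chr2:104853865-104854114, plus strand for POU3F3, chr10:15719923-15720172, minus strand for ITGA8 and chr10:101031130-101031379, minus strand for PDZD7. The POU3F3 window lies inside the interval given above, which covers all RefSeq transcripts of the gene and begins before the listed start. Bases just after the listed start were found in a transcript of the GENCODE annotation for HOXD8, ITGA8 and PDZD7. For POU3F3 they were not found, so its start is less certain.
HOXD8: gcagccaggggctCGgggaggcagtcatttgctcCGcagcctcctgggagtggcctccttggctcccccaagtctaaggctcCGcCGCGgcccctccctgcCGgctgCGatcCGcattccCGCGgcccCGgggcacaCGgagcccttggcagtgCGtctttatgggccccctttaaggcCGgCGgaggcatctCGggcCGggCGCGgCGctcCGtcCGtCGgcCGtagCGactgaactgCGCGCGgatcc
POU3F3: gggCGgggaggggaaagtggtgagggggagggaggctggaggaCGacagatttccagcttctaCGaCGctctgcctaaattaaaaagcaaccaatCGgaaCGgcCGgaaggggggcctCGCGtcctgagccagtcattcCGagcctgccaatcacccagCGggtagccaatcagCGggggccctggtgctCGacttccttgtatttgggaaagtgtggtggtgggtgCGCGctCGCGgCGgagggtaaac
ITGA8: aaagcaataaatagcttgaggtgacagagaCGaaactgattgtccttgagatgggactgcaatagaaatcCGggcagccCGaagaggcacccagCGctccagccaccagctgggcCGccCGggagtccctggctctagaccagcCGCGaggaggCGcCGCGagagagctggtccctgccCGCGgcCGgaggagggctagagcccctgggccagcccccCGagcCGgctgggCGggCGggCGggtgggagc
PDZD7: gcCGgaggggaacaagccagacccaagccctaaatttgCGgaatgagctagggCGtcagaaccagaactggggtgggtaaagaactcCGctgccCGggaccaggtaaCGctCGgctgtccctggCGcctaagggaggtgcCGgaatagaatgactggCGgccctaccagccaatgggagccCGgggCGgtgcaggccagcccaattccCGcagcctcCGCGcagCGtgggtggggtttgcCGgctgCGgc

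These windows hold 28, 18, 19 and 18 CpG, respectively. Of the 20 genes, 9 had a single listed start; their windows held 1 to 28 CpG with a median of 18, and the median over all 22114 windows of this length was 9 (quartiles 2 and 22). The motif TATAAA, searched on both strands, was in none of the 9 and in 11.8% of all windows. These counts describe the sequence, and DNA methylation was not measured.

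Among the other genes furthest higher with gRNA 1, NEFL, the light neurofilament subunit, had 107, 135 and 137 counts against 0, 1 and 1, at least 45.5-fold higher (42.0-fold without replicate 3). CFC1, a co-receptor of Nodal, had 100, 82 and 210 against 0, 2 and 0 counts, at least 47.9-fold higher; a near-identical copy of this gene makes its count uncertain. The bound for CFC1 rested in part on replicate 3: without it the fold was at least 31.5, and the mean of the other gRNA 1 libraries was 91 counts, below the 100 asked of these genes. NCAN, the proteoglycan neurocan, had 346, 317 and 389 against 5, 10 and 7 counts, with an edgeR log2 fold change of 5.67 (SE 0.23, adjusted p 5.08e-08) and of 5.51 without replicate 3. The angiotensin II receptor AGTR1 had 123, 121 and 146 against 0, 4 and 2 counts, a log2 fold change of 6.05 (5.88 without replicate 3). For AGTR1 and NCAN the control, at 65, 68 and 62 and 66, 60 and 53 counts, lay between. AFAP1-AS1, an antisense RNA, had 738, 804 and 351 against 5, 4 and 8 counts, a log2 fold change of 6.85 (7.10 without replicate 3). LRP4, the agrin receptor of the neuromuscular junction, depended on 1 library for its size: counts were 43, 54 and 404 against 1, 1 and 5, with a log2 fold change of 6.25 that was 4.35 without replicate 3.

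In the other direction the 10 genes were ITGA8, KCNK17, GC, SLC7A8, GLYATL1P2, HERC6, PDZD7, KLHDC7A, GLP1R and GPC5-AS1. ITGA8, GLYATL1P2 and HERC6 held at most 3 counts in each gRNA 1 library and averaged at least 100 with gRNA 10. SLC7A8, the LAT2 light chain that carries neutral amino acids, was the most abundant, with 87690, 85299 and 82490 counts with gRNA 10 against 532, 583 and 643 with gRNA 1 and 348, 336 and 322 in the control. Here gRNA 10 was the population that stood apart, with an edgeR log2 fold change of -7.07 (SE 0.14, adjusted p 6.10e-10) and of -7.21 without replicate 3. Its obligate heavy chain partner SLC3A2 was also higher with gRNA 10, at 1289, 1184 and 1224 CPM against 157, 167 and 228, with an edgeR log2 fold change of -2.74 (SE 0.15, adjusted p 4.19e-07) and of -2.94 without replicate 3. SLC7A5, the related light chain LAT1, differed in the opposite direction at 1.03 (1.20 without replicate 3). RNF212B, which lies 1676 bp from SLC7A8 on chromosome 14, followed SLC7A8 at -1.98 (-2.10 without replicate 3), and the cause was not tested. C14orf119 on the other side was not called, at -0.11 (0.05 without replicate 3).

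An integrin, a potassium channel and a scaffold gene also stood among the genes furthest higher with gRNA 10. ITGA8, the alpha subunit of an integrin that binds nephronectin, had 254, 239 and 261 counts with gRNA 10 and 0, 0 and 1 with gRNA 1, at least 77.8-fold higher with gRNA 10 (80.6-fold without replicate 3). Its neighbours FAM171A1 and MINDY3 differed less, at -0.93 (-0.87 without replicate 3) and -0.68 (-0.59 without replicate 3). KCNK17, a potassium leak channel on chromosome 6, had 1734, 1702 and 1580 against 3, 8 and 10 counts, with an edgeR log2 fold change of -7.77 (SE 0.23, adjusted p 5.92e-09) and of -8.18 without replicate 3. The adjacent channel gene KCNK5 was also higher with gRNA 10 at -3.49 (-3.32 without replicate 3), while KIF6 on the other side was not called, at -0.17 (-0.23 without replicate 3). PDZD7, a scaffold protein of hair cells, had 6410, 6082 and 6234 against 48, 53 and 153 counts, with an edgeR log2 fold change of -6.07 (SE 0.39, adjusted p 1.44e-06) and of -6.91 without replicate 3, and replicate 3 was the highest of the gRNA 1 libraries. SFXN3, whose annotation begins 105 bp from PDZD7, had a log2 fold change of -0.24 (-0.27 without replicate 3), a far smaller difference than that of PDZD7, and TWNK on the other side was not called, at -0.12 (-0.12 without replicate 3).

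GC encodes the vitamin D binding protein, a product of liver. Its counts were 3354, 3392 and 3417 with gRNA 10, 1496, 1550 and 1534 in the control and 22, 29 and 15 with gRNA 1, with an edgeR log2 fold change of -7.16 (SE 0.15, adjusted p 7.17e-10) and of -7.01 without replicate 3. The populations thus lay on either side of the control. GLP1R, the incretin receptor, had 390, 426 and 377 against 16, 15 and 9 counts, a log2 fold change of -4.79 (-4.63 without replicate 3), and its neighbours DNAH8 and SAYSD1 were also higher with gRNA 10, at -1.74 (-1.33 without replicate 3) and -1.09 (-1.03 without replicate 3). HERC6, an interferon-induced ubiquitin ligase, had 105, 111 and 123 against 0, 1 and 2 counts, at least 35-fold higher with gRNA 10 (36.2-fold without replicate 3). The adjacent HERC5, which attaches ISG15, was also higher with gRNA 10 at -1.34 (-1.16 without replicate 3), while PPM1K on the other side was called in the opposite direction at 0.51 (0.61 without replicate 3). KLHDC7A, a kelch domain protein, was at -5.29 (-5.76 without replicate 3) and the antisense transcript GPC5-AS1 at -4.76 (-4.76 without replicate 3). The pseudogene GLYATL1P2, whose reads may be shared with its relatives, had 123, 118 and 103 against 1, 1 and 1 counts, at least 35.5-fold higher with gRNA 10 (36.8-fold without replicate 3). GLYATL1, the glycine acyltransferase-like gene beside it, was at -1.58 (-1.69 without replicate 3). Of the 40 nearest tested genes on either side of the 20 genes, 19 were called in the same direction as the gene beside them, 2 in the other and 19 not at all; without replicate 3 these were 20, 6 and 14, and over all genes tested 35.6% and 45.1% were called.

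**Figure D2:**
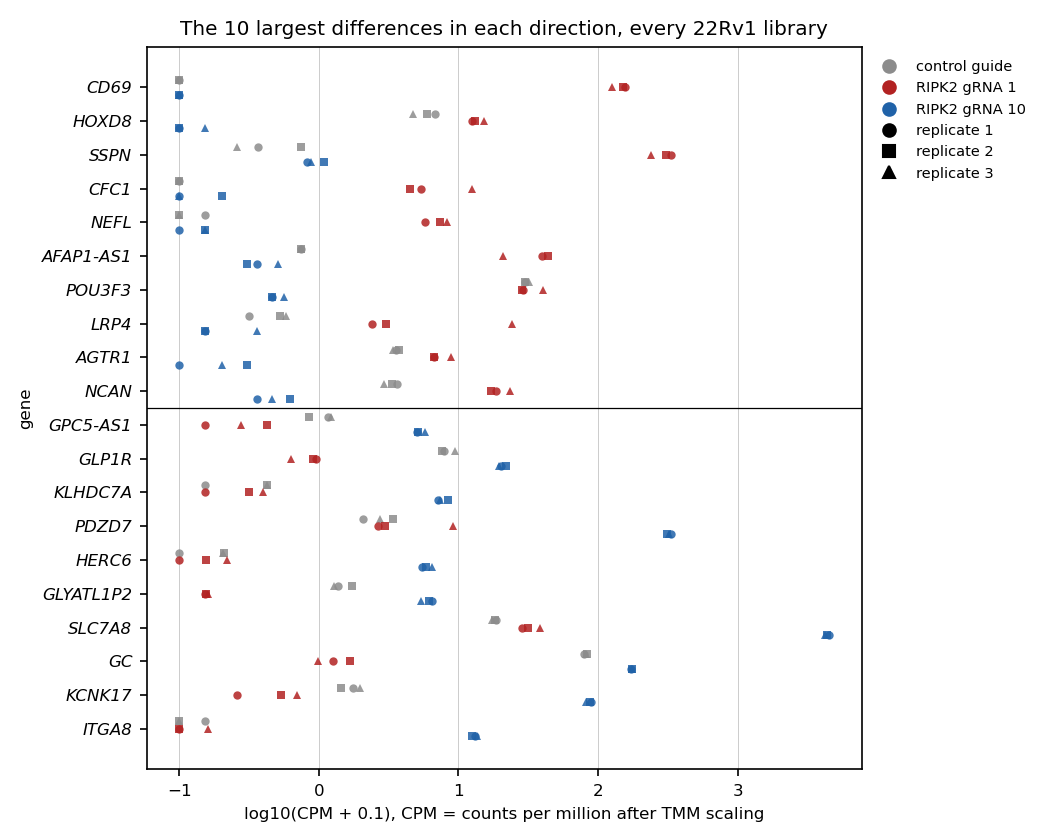
CPM on a log10 scale (with 0.1 added) of the 10 genes furthest higher with gRNA 1 (above the line) and the 10 furthest higher with gRNA 10 (below it); each symbol is 1 library, coloured by guide and shaped by replicate number. Red and blue symbols do not overlap for any gene, and for PDZD7, LRP4 and AFAP1-AS1 the gRNA 1 replicate 3 lies apart from its replicates.

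The control libraries place these differences. Among the 1981 genes at least 2-fold apart, the control mean was placed on a scale from the gRNA 10 mean (0) to the gRNA 1 mean (1) of log2(CPM + 1). It was below 0.25, nearer gRNA 10 or past it, for 822 genes, above 0.75 for 609, and between for 550; without replicate 3 these were 716, 661 and 528 of 1905 genes. Neither population was the one that departed from the control at all of these genes. Genes with no overlap among the 3 groups and the control in the middle numbered 421 with gRNA 1 on top and 392 with gRNA 10 on top (585 and 511 without replicate 3). ID4 and ID2, inhibitors of basic helix-loop-helix factors, were of the first kind. ID4 was at 303, 291 and 289.6 CPM with gRNA 1, 51.3, 52.4 and 55.1 in the control and 30.9, 29.7 and 29.9 with gRNA 10, with an edgeR log2 fold change of 3.29 (SE 0.08, adjusted p 3.85e-09) and of 3.28 without replicate 3; ID2 was at 2.36 (2.37 without replicate 3). TMBIM1, NMB (the peptide neuromedin B) and PGAM2 (a muscle phosphoglycerate mutase) followed at 3.42 (3.47 without replicate 3), 4.06 (4.03 without replicate 3) and 3.51 (3.41 without replicate 3). Of the second kind, besides GC and KCNK17, were AOX1, the aldehyde oxidase, at -3.93 (-3.95 without replicate 3), GLB1, the lysosomal beta-galactosidase, at -3.40 (-3.32 without replicate 3), and DSCAM, a neural adhesion molecule, at -4.31 (-4.18 without replicate 3). GLB1 was abundant, with 597, 609.7 and 584 CPM with gRNA 10, 87.5, 81.7 and 84.3 in the control and 60.6, 60.3 and 48.3 with gRNA 1.

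**Figure D3:**
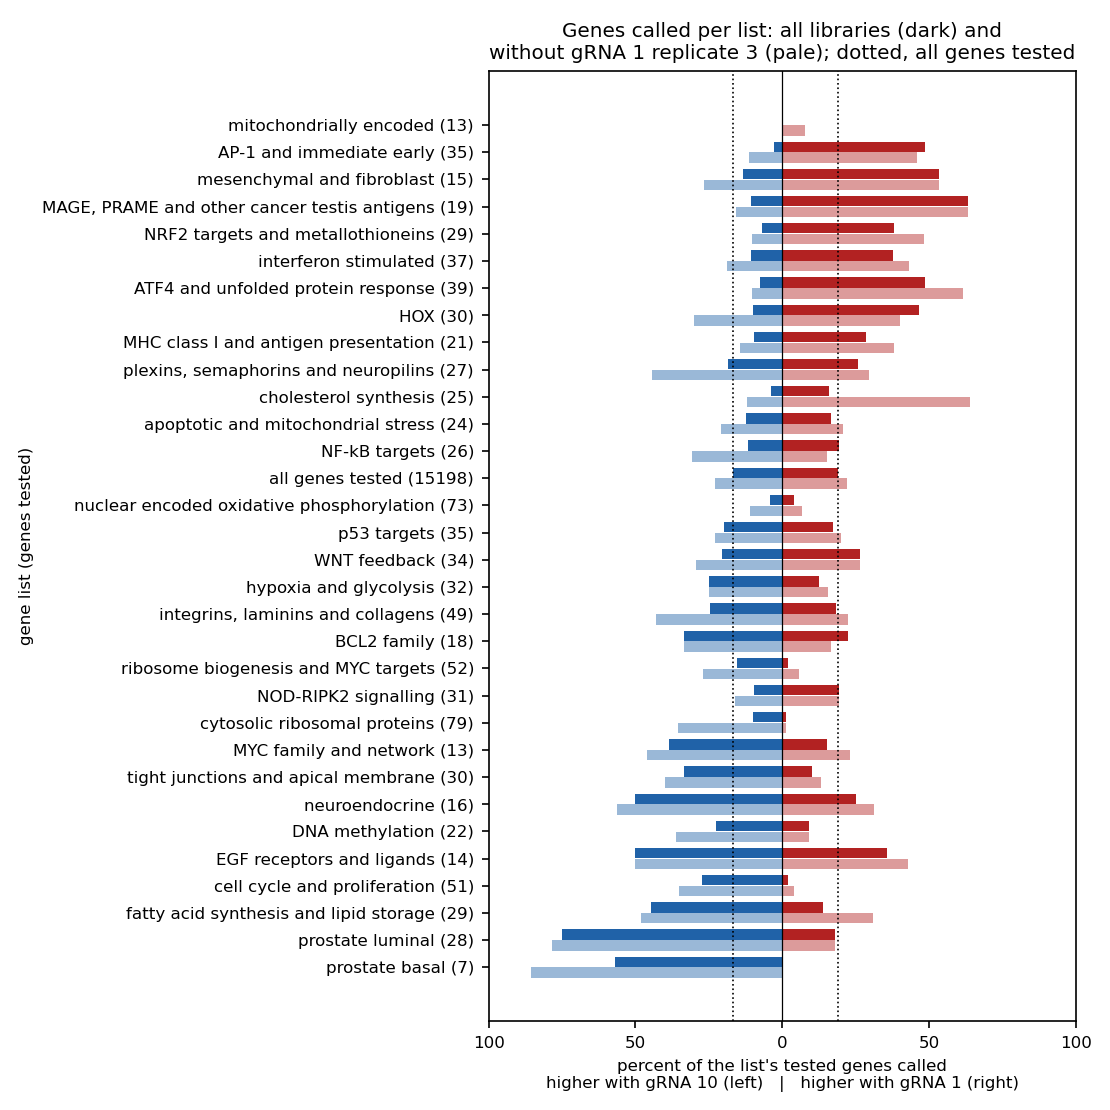
Percent of the tested genes of each list called higher with gRNA 1 (red, right) or with gRNA 10 (blue, left), with all libraries (dark bars) and without gRNA 1 replicate 3 (pale bars); dotted lines mark 18.8% and 16.8%, the shares of all genes tested. The prostate luminal list has 21 of 28 genes on the gRNA 10 side, and the cholesterol list goes from 4 to 16 of 25 genes on the gRNA 1 side when the library is left out.

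Genes of prostate luminal identity were mostly lower with gRNA 1. Luminal cells line the prostate gland and secrete its proteases under the control of androgen. Of 28 tested, 21 were higher with gRNA 10 and 5 with gRNA 1 (22 and 5 without replicate 3); 92.9% were called, against 35.6% of all genes tested, and the median was -0.48 (-0.56), against 0.02 (-0.01) over all genes. Summed over the list, levels were 4444, 4489 and 4310 CPM with gRNA 1, 5069, 5096 and 5034 with gRNA 10 and 7395 to 7606 in the control.

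GATA2, a zinc finger transcription factor, showed the widest gap among those of these genes that were higher with gRNA 10, at 51.9, 50.8 and 97.5 CPM with gRNA 1 and 479, 474 and 459.9 with gRNA 10. The log2 fold change was -2.82 (SE 0.22, edgeR adjusted p 5.81e-06; -3.21 without replicate 3), and the control, at 480.0, 421 and 481 CPM, was near gRNA 10. TMPRSS2, the androgen-induced serine protease, was at 22.6, 24.7 and 27.4 against 53.8, 53.4 and 58.5 CPM, with an edgeR log2 fold change of -1.15 (SE 0.10, adjusted p 1.26e-05) and of -1.24 without replicate 3. NDRG1, induced by androgen and by hypoxia, was at -2.24 (-2.26 without replicate 3). In log2 fold changes with and without replicate 3, KLK3 (prostate-specific antigen) was at -0.72 and -1.01, HOXB13 at -0.69 and -0.73 and FOXA1 at -0.43 and -0.47. The 5 exceptions were KLK4, STEAP4, FKBP5 and the simple epithelial keratins KRT8 and KRT19. KLK4, another kallikrein, was at 487, 528 and 732 CPM with gRNA 1 and 107, 102 and 99.4 with gRNA 10, with an edgeR log2 fold change of 2.50 (SE 0.17, adjusted p 1.63e-06) and of 2.29 without replicate 3. KRT8 was at 1.12 (1.03 without replicate 3) and KRT19 at 3.17 (2.62 without replicate 3), while KRT18, the partner of KRT8, was on the other side at -0.29 (-0.34 without replicate 3). Known androgen targets were thus called in both directions.

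Markers of other prostate states did not share a direction, and their counts stand beside 18.8% and 16.8% of all genes tested (22.0% and 23.1% without replicate 3). Of 16 neuroendocrine genes, 4 were higher with gRNA 1 and 8 with gRNA 10 (5 and 9 without replicate 3), with a median of -0.19 (-0.45). SCGN, the calcium sensor secretagogin, was on the gRNA 10 side at -3.04 (-2.90 without replicate 3). ENO2, the neuron-specific enolase, was on the gRNA 1 side at 1.38 (1.13 without replicate 3), as was SOX2 at 1.45 (1.43 without replicate 3). NEUROD1 was at 0 in every RIPK2 library. Of 15 mesenchymal genes, 8 were higher with gRNA 1 and 2 with gRNA 10 (8 and 4), with a median of 0.58 (0.62). Replicate 3 stood apart for both lists, as given below. CDH2, or N-cadherin, was at 27.2, 27.9 and 47.2 CPM with gRNA 1 and 1.96, 2.22 and 2.42 with gRNA 10, with an edgeR log2 fold change of 3.95 (SE 0.24, adjusted p 8.47e-07) and of 3.63 without replicate 3, whereas FN1, fibronectin, was higher with gRNA 10 at -2.26 (-2.33 without replicate 3). The fibroblast markers COL1A2 and DCN held at most 2 counts in any RIPK2 library. Others were present: the highest counts were 489 for COL1A1, 41 for LUM, 39 for COL3A1 and 7 for PDGFRA. COL1A1 was at 11.3 to 29.1 CPM with gRNA 1 and 21.6 to 24.2 with gRNA 10. Of 7 basal genes tested, 0 were higher with gRNA 1 and 4 with gRNA 10 (0 and 6), among them NOTCH3 at -0.83 (-1.04 without replicate 3) and CD44 at -0.62 (-0.52 without replicate 3).

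Called genes of the endoplasmic reticulum and amino acid stress responses were mostly higher with gRNA 1. The unfolded protein response raises chaperones when the reticulum is overloaded, and ATF4 raises amino acid synthesis and transport. Of 39 tested, 19 were higher with gRNA 1 and 3 with gRNA 10 (24 and 4 without replicate 3), against 18.8% and 16.8% of all genes tested (22.0% and 23.1% without replicate 3), and the median was 0.29 (0.35). PDIA4, a disulfide isomerase, was at 749.6, 756 and 723 CPM with gRNA 1 and 274, 270.4 and 266 with gRNA 10, with an edgeR log2 fold change of 1.46 (SE 0.08, adjusted p 3.59e-07) and of 1.46 without replicate 3; it lies in the segment of chromosome 7 described below. MANF, a secreted reticulum factor, was at 1.08 (1.01 without replicate 3), HERPUD1, of reticulum-associated degradation, at 1.11 (1.18 without replicate 3), and HSPA5, the chaperone BiP, at 0.76 (0.79 without replicate 3). DDIT3, the stress factor CHOP, was at 1.75 (1.39 without replicate 3). The 3 on the gRNA 10 side were SLC3A2, the serine synthesis enzyme PSAT1 at -0.64 (-0.46 without replicate 3) and ATF3 at -0.28 (-0.36 without replicate 3). ATF4 itself was not called, at 0.28 (0.11 without replicate 3).

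The receptors and ligands of the EGF family differed in both directions. Receptors of this family dimerise on ligand binding and drive the MAP kinase pathway. Of 14 tested, 5 were higher with gRNA 1 and 7 with gRNA 10 (6 and 7 without replicate 3), where the shares over all genes tested were 18.8% and 16.8% (22.0% and 23.1%). Among ligands, AREG (amphiregulin) had 244, 256 and 186 counts with gRNA 1, 29, 28 and 55 with gRNA 10 and 5, 5 and 4 in the control, with an edgeR log2 fold change of 2.71 (SE 0.24, adjusted p 1.19e-05) and of 2.78 without replicate 3. EPGN (epigen) was at 3.42 (3.68 without replicate 3), while TGFA was higher with gRNA 10 at -1.41 (-1.30 without replicate 3). Among receptors, EGFR was at 24.2, 22.6 and 17.3 CPM with gRNA 1 and 48.8, 51.7 and 48.2 with gRNA 10, with an edgeR log2 fold change of -1.21 (SE 0.12, adjusted p 3.88e-05) and of -1.10 without replicate 3. ERBB3 was also higher with gRNA 10 at -1.18 (-1.20 without replicate 3), and ERBB2 was higher with gRNA 1 at 0.67 (0.54 without replicate 3).

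Immediate early genes and feedback regulators of MAP kinase signalling were called mostly on the gRNA 1 side, with values that in part rested on replicate 3. Of 35 tested, 17 were higher with gRNA 1 and 1 with gRNA 10, with a median of 0.78; without replicate 3 the counts were 16 and 4 and the median 0.36. Over all genes tested the shares were 18.8% and 16.8%, and 22.0% and 23.1% without replicate 3. SPRY4, an inhibitor of receptor kinase signalling, was at 36.9, 39.2 and 27.5 CPM against 4.49, 5.52 and 4.74, with an edgeR log2 fold change of 2.81 (SE 0.17, adjusted p 9.13e-07) and of 2.93 without replicate 3. DUSP4, a MAP kinase phosphatase, was at 1.39 (1.38 without replicate 3) and CCN2, connective tissue growth factor, at 2.60 (2.59 without replicate 3). FOS, a subunit of AP-1, differed by library: its counts were 144, 119 and 5459 with gRNA 1 and 106, 87 and 99 with gRNA 10. Its log2 fold change was 4.49 (edgeR adjusted p 0.0537) with all libraries and 0.47 (0.024) without replicate 3. FOSB, at 44, 34 and 1827 against 55, 47 and 63 counts, went from 3.72 to -0.45, and neither value passed the test. EGR1, a zinc finger factor, stayed higher with gRNA 1, at 3.47 and 1.31.

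The count for cholesterol synthesis depended on the same library. In cholesterol synthesis, 4 of 25 genes were higher with gRNA 1 and 1 with gRNA 10; without replicate 3 these were 16 and 3, and the median went from 0.07 to 0.32. All genes tested gave 18.8% and 16.8% with replicate 3 and 22.0% and 23.1% without it. INSIG1, the sterol sensor that holds back SREBP, was at 367, 366 and 86.9 CPM with gRNA 1 and 152, 153 and 149 with gRNA 10. The first pair of gRNA 1 libraries lay above gRNA 10 and replicate 3 below it; the log2 fold change was 0.85 (edgeR adjusted p 0.114) with it and 1.26 (1.06e-08) without it. TM7SF2, a sterol reductase, was higher with gRNA 1 either way at 1.17 (1.20 without replicate 3). Of 29 genes of fatty acid synthesis and lipid storage, 4 were higher with gRNA 1 and 13 with gRNA 10 (9 and 14 without replicate 3). PLIN2, which coats lipid droplets, was at 4.10, 3.62 and 4.64 CPM against 9.92, 10.9 and 10.4, with an edgeR log2 fold change of -1.34 (SE 0.12, adjusted p 1.97e-05) and of -1.44 without replicate 3. FABP5, a fatty acid carrier, was at -1.15 (-1.26 without replicate 3) and CIDEB at -2.18 (-2.11 without replicate 3).

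Replicate 3 of gRNA 1 was described against its own replicates, with no test since it is 1 library. Of 11150 nuclear genes with at least 100 counts on average, 386 were at least 2-fold higher and 118 at least 2-fold lower in it than in the mean of replicates 1 and 2, where those replicates were at least 2-fold apart at 0 genes. The 13 mitochondrially encoded genes were all at least 2-fold higher in it, with a median log2 difference of 3.27; summed, they reached 160304 CPM against 16883 and 15804 in its replicates. Highest were FOS and FOSB, with log2 differences of 5.34 and 5.15, followed by pseudogenes of mitochondrial genes such as MTCO2P12 (3.73), MTCO1P12 (3.69) and MTCO3P12 (3.46), whose reads may be mitochondrial. Lowest were INSIG1 (-2.06), CYP51A1 (-1.89), SLC12A2 (-1.75), LYPLA1 (-1.74) and MSMO1 (-1.71), of which INSIG1, CYP51A1 and MSMO1 belong to sterol synthesis and its control. At genes more than 4-fold apart between the populations in the fit without it, 611 in number, the library lay with gRNA 1: its median place was 0.97 on a scale from the gRNA 10 mean (0) to the mean of the other gRNA 1 libraries (1), with quartiles of 0.72 and 1.17. The controls had medians of 0.46, 0.47 and 0.48 on this scale and spread over nearly all of it, with lower quartiles of 0, 0.00858 and 0 and upper quartiles of 0.945, 0.930 and 0.934. By list, the median of log2(CPM + 1) minus the control mean was 1.01 in it for the mesenchymal genes, against 0.06 and 0.24 in its replicates, and 0.84 for the neuroendocrine genes, against 0.28 and 0.19. The integrin list gave 0.70 against 0.19 and 0.30, and the plexin list 0.63 against 0.12 and 0.20. RNA quality was not given in the labels, and its part in these values was not tested.

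**Figure D4:**
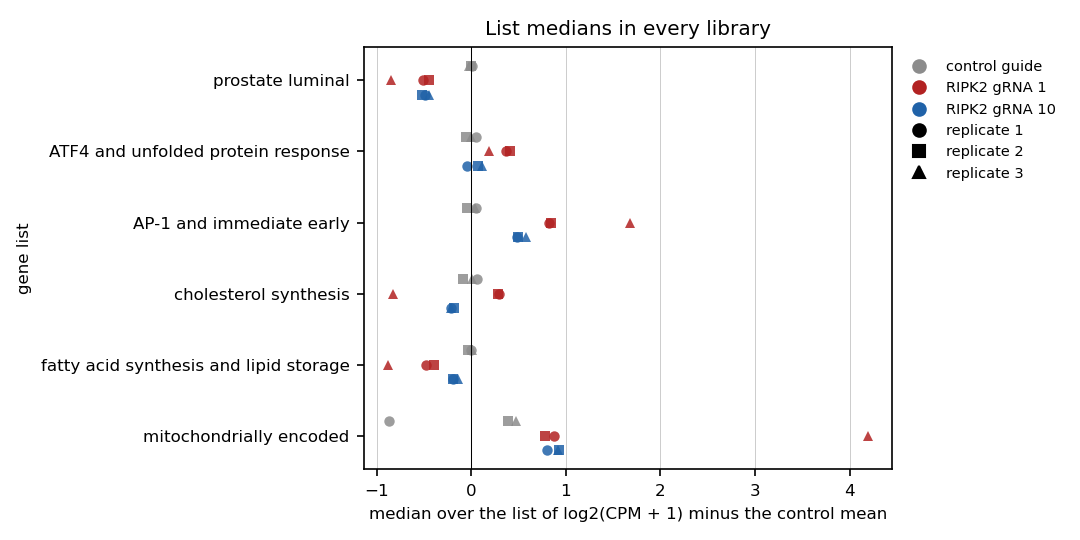
Median over each list of log2(CPM + 1) minus the control mean, for every 22Rv1 library (colour: guide, shape: replicate number). The gRNA 1 replicate 3 (red triangle) lies, among the 6 lists drawn, furthest from its replicates for the mitochondrially encoded, immediate early and cholesterol lists, at 4.19, 1.67 and -0.82, and less far for the prostate luminal and fatty acid lists, while the gRNA 10 libraries lie together.

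Metal and redox genes that were called lay mostly on the gRNA 1 side. Metallothioneins bind zinc and copper, and NRF2 drives antioxidant enzymes. Of 29 tested, 11 were higher with gRNA 1 and 2 with gRNA 10 (14 and 3 without replicate 3), against 18.8% and 16.8% of all genes tested (22.0% and 23.1% without replicate 3), and the median was 0.31 (0.46). MT1E had 454, 456 and 515 counts with gRNA 1, 159, 125 and 158 in the control and 14, 13 and 20 with gRNA 10, with an edgeR log2 fold change of 5.02 (SE 0.20, adjusted p 4.21e-08) and of 4.89 without replicate 3. MT2A, another metallothionein, was at 2.02 (2.00 without replicate 3). AKR1C3, an aldo-keto reductase that makes testosterone from androstenedione, was at 54.4, 55.7 and 47.8 CPM against 11.4, 9.65 and 9.58, with an edgeR log2 fold change of 2.37 (SE 0.12, adjusted p 1.87e-07) and of 2.42 without replicate 3. On the gRNA 10 side were GSR, the glutathione reductase, at -0.62 (-0.51 without replicate 3) and GCLC, of glutathione synthesis, at -0.51 (-0.40 without replicate 3). Metallothioneins are near-identical copies, so reads may be divided among them.

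Among interferon-stimulated genes, 14 of 37 were higher with gRNA 1 and 4 with gRNA 10 (16 and 7 without replicate 3), against 18.8% and 16.8% of all genes tested (22.0% and 23.1% without replicate 3); the median was 0.31 (0.04 without replicate 3). DHX58, the RNA sensor LGP2, was at 2.89 (2.60 without replicate 3), the GTPase GBP1 at 2.89 (2.87 without replicate 3) and PARP14 at 0.90 (0.92 without replicate 3), against HERC6 and HERC5 on the gRNA 10 side. Cancer testis antigens and related genes gave 12 of 19 higher with gRNA 1 and 2 with gRNA 10 (12 and 3), with a median of 0.47 (0.50), where all genes tested gave 18.8% and 16.8% (22.0% and 23.1%). BEX1, a small adaptor protein, had 1260, 1290 and 1160 counts with gRNA 1, 626, 642 and 559 with gRNA 10 and 0, 0 and 0 in the control. Its log2 fold change between the guides was 1.13 (1.11 without replicate 3), so both populations expressed a gene that the control libraries did not show. MAGEA1 was at 0.67 (0.67 without replicate 3) and MAGEA12 at -0.64 (-0.74 without replicate 3); MAGEA genes share long stretches of sequence, so their counts are uncertain. Of 30 HOX genes, 14 were higher with gRNA 1 and 3 with gRNA 10; without replicate 3 these were 12 and 9, beside the same shares of all genes. Besides HOXD8 and HOXD9, HOXB7 was at 1.62 (1.53 without replicate 3), and HOXC13 was on the gRNA 10 side at -1.04 (-1.10 without replicate 3).

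Proliferation genes were rarely higher with gRNA 1. Of 51 cell cycle genes, 1 was higher with gRNA 1 and 14 with gRNA 10 (2 and 18 without replicate 3), with a median of -0.25 (-0.17); 29.4% were called, against 35.6% of all genes tested. CCND1, cyclin D1, was at 2498, 2496 and 1936 CPM with gRNA 1 and 3661, 3673 and 3823 with gRNA 10, with an edgeR log2 fold change of -0.69 (SE 0.10, adjusted p 0.000518) and of -0.59 without replicate 3. CCNE1, cyclin E1, was at -1.28 (-1.42 without replicate 3), and the inhibitor CDKN1B (p27) was also higher with gRNA 10 at -0.80 (-0.83 without replicate 3). MYC was at 252, 264 and 265 CPM with gRNA 1, 352, 343 and 346 with gRNA 10 and 429, 374 and 388 in the control, with an edgeR log2 fold change of -0.41 (SE 0.08, adjusted p 0.00257) and of -0.44 without replicate 3. Its paralogue MYCN had 13, 12 and 12 against 40, 42 and 44 counts, a log2 fold change of -1.65 (-1.70 without replicate 3). Of 13 genes of the MYC network, 2 were higher with gRNA 1 and 5 with gRNA 10 (3 and 6). Of 52 ribosome biogenesis genes and MYC targets, 1 was higher with gRNA 1 and 8 with gRNA 10 (3 and 14), and of 79 cytosolic ribosomal proteins 1 and 8 (1 and 28), beside 18.8% and 16.8% of all genes tested (22.0% and 23.1% without replicate 3). RPL36 alone of the cytosolic ribosomal proteins was called higher with gRNA 1, at 0.89 (0.81 without replicate 3).

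By position, chromosome 7 had the highest median log2 fold change of all chromosomes, 0.15 (0.09 without replicate 3) over 756 tested genes, and chromosome 12 the lowest, -0.05 (-0.08) over 817; without replicate 3 chromosome 21 was lowest, at -0.09. Called on chromosome 7 were 225 genes higher with gRNA 1 and 96 with gRNA 10, and on chromosome 12 130 and 194. Without replicate 3 these were 268 and 135, and 160 and 262. With all libraries 42.5% of tested genes were called on chromosome 7 and 39.7% on chromosome 12, near the 35.6% of all genes tested. By direction, all genes tested gave 18.8% and 16.8% (22.0% and 23.1% without replicate 3). The difference on chromosome 7 lay mainly in its distal long arm. In 372 windows of 5 Mb with at least 15 tested genes each, 8 had a median of 0.4 or more, and 7 of these were the windows of chromosome 7 from 125 Mb to its end. The boundary was set after these values were seen, so the segment is a description with no test. The eighth, at the end of chromosome 22, had a median of 0.54 that was 0.10 without replicate 3. In the other direction 3 windows had a median of -0.4 or less: 70 to 75 Mb of chromosome 12, at -0.51 over 15 genes (-0.46 without replicate 3), 35 to 40 Mb of chromosome 14, at -0.46 over 25 (-0.48), and 95 to 100 Mb of chromosome 12, at -0.41 over 18 (-0.32).

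The segment spans chr7:126438598-158958698 and holds 170 tested genes. Their median was 0.58 (0.57 without replicate 3), 157 of them (92.4%) were above 0, and 118 were called higher with gRNA 1 and 3 with gRNA 10 (137 and 4 without replicate 3). The other 586 genes of chromosome 7 had a median of 0.03 (-0.01), with 107 and 93 called (131 and 131 without replicate 3). Over all genes tested, 18.8% and 16.8% were called (22.0% and 23.1% without replicate 3). Against the control mean, the segment's median was 0.51, 0.51 and 0.49 in the gRNA 1 libraries and -0.01, -0.01 and -0.03 in the gRNA 10 libraries. The rest of the chromosome was at 0.47, 0.47 and 0.48 with gRNA 1 and at 0.45, 0.45 and 0.46 with gRNA 10. The median was thus above the control on both sides of the boundary with gRNA 1, and on the proximal side alone with gRNA 10, in all 3 libraries of each population. DNA copy number was not measured.

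Genes of the segment covered many functions. AOC1, a diamine oxidase, had 305, 293 and 307 counts with gRNA 1, 70, 52 and 68 in the control and 9, 7 and 11 with gRNA 10, with an edgeR log2 fold change of 5.15 (SE 0.20, adjusted p 4.21e-08) and of 5.08 without replicate 3. PTN, the heparin-binding growth factor pleiotrophin, was at 3.64 (3.62 without replicate 3) and CNTNAP2, a neurexin-like adhesion protein, at 2.08 (2.17 without replicate 3). GSTK1, a glutathione transferase, was at 1.22 (1.08 without replicate 3). ATP6V0E2, a subunit of the vacuolar proton pump, was at 1.17 (1.22 without replicate 3). With all libraries both lay above the segment's upper quartile of 1.08. ATP6V0E2-AS1, the antisense transcript of ATP6V0E2, was at 2.54 (2.41 without replicate 3). Outside the segment, AGR2, a reticulum disulfide isomerase on 7p, had 1118, 1165 and 917 counts with gRNA 1, 47, 53 and 43 with gRNA 10 and 34, 29 and 27 in the control, with an edgeR log2 fold change of 4.58 (SE 0.13, adjusted p 5.80e-09) and of 4.62 without replicate 3. On chromosome 12, IGF1, insulin-like growth factor 1, was at 7.93, 6.97 and 5.59 CPM with gRNA 1 and 93.7, 98.6 and 100.2 with gRNA 10, with an edgeR log2 fold change of -3.83 (SE 0.17, adjusted p 8.48e-08) and of -3.72 without replicate 3. RERG, a RAS-like growth inhibitor, and PTPRB, a receptor phosphatase, were also higher with gRNA 10, at -2.86 (-2.89 without replicate 3) and -1.52 (-1.46 without replicate 3).

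**Figure D5:**
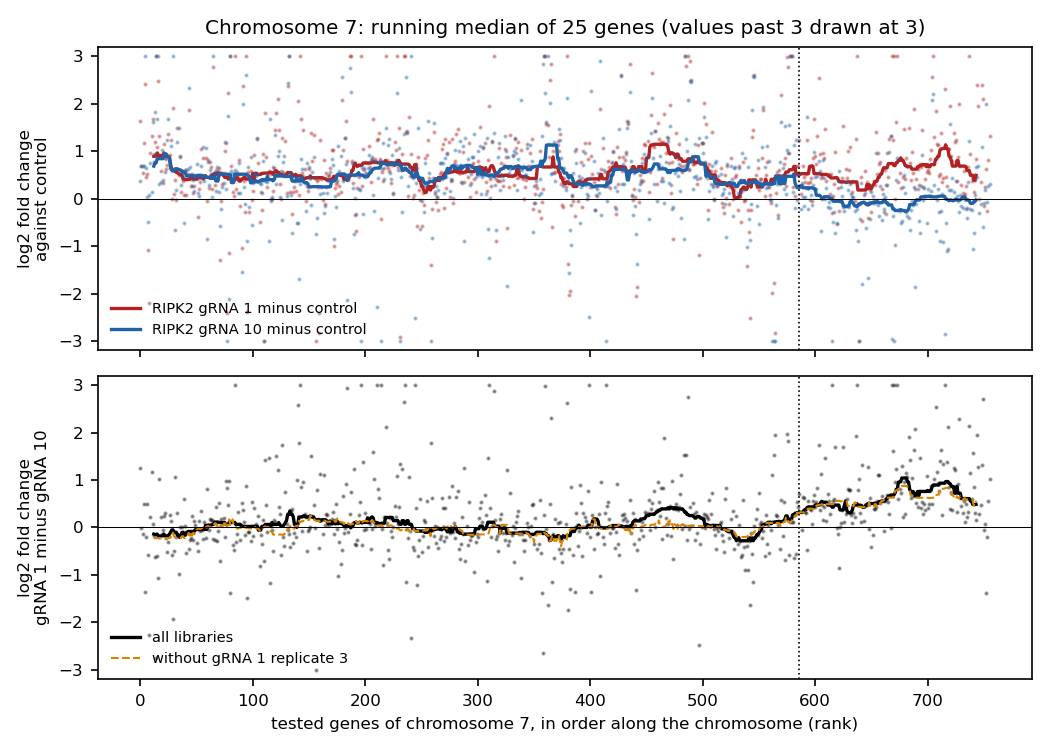
Log2 fold change of the tested genes of chromosome 7 in their order along it (horizontal axis, rank): above, each RIPK2 population minus the control; below, gRNA 1 minus gRNA 10; lines are running medians of 25 genes and the dotted line marks the start of the distal segment. Both populations run near 0.5 over most of the chromosome, while in the segment gRNA 10 runs near 0 and gRNA 1 does not, with or without replicate 3.

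The other lines of the series used gRNA 10 and, as the first guide, gRNA 2, so the same guide pair was not compared there. Of the 20 genes at the extremes, 8 were tested in DU145 and 4 called, 2 of them in the direction seen in 22Rv1 (38.8% of all genes tested were called in DU145). In PC3 7 were tested and 6 called, 4 in that direction (73.4% of all genes). HERC6 was higher with gRNA 10 in PC3, at a log2 fold change of -3.28 for gRNA 2 minus gRNA 10, and KLHDC7A in DU145, at -5.42. LRP4 and NEFL differed in the opposite direction to 22Rv1: LRP4 at -1.72 in DU145 and -4.93 in PC3, NEFL at -1.91 and -1.01. The folds of KLHDC7A in DU145 and of LRP4 in PC3 are uncertain in size. Their gRNA 2 means, 0.053 and 0.066 CPM, correspond to fewer than 3 counts. Whether the lines differ was not tested.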

How the data were processed

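Total RNA was made into strand-specific mRNA libraries read as paired 150-base ends, per the labels' protocols. The authors deposited raw counts per gene symbol and library, per the file headers. FastQC, STAR, edgeR and hg38 are named in the submitters' processing notes; the counting program, annotation and filters are not given in the sources used here. The 22Rv1 table held 24385 rows, and 6 symbols listed more than once were summed.

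Counts were analysed with edgeR 4.0.16 in R 4.3.3: filterByExpr (minimum count 10, minimum total 15), TMM factors, robust quasi-likelihood F test, two-sided, of the 9 22Rv1 libraries with group as the only term. A gene was called at a Benjamini-Hochberg adjusted p below 0.05 over all genes tested. The common biological coefficient of variation was 14.2%. Standard errors were derived from the F statistic. Folds against libraries of at most 3 counts are lower bounds against that floor in each library; floors cover counting error only. The members and the 31 gene lists, written from general knowledge, were chosen with earlier results of these data known. Named are RIPK2, NOD1, NOD2, MAP2K7 and MYC; the 10 largest differences in each direction (mean of at least 100 counts, no overlap, called with and without gRNA 1 replicate 3); per list up to 3 genes a direction with the smallest p; and genes of outlying chromosomes, of replicate 3 and with the control in between. Other list members, partner or neighbour genes and those of the chromosome 7 segment were chosen after their values were seen. 1 Y-linked gene that met the rule is left out, and results of some other genes are not reported here. On chromosomes 15156 of 15198 genes were placed, 14869 of them by current symbol. Alternatives were RLE factors, DESeq2 1.42.0, other filters, fewer libraries, no mitochondrially encoded genes and a replicate block. The procedure was tested on simulated data. Counts of replicates differed by more than sampling noise, so none was taken as a duplicate.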

Additional observations from a re-analysis of the deposited data

How the results depend on the processing

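Leaving out 1 library at a time gave 3803 to 6940 genes called in 22Rv1 (5410 with all) and 1806 to 2120 at least 2-fold apart (1981 with all). The lowest counts came without gRNA 10 replicate 2 and the 6940 without gRNA 1 replicate 3. In DU145 the range was 4102 to 7266 (5789 with all) and in PC3 10436 to 10932 (10799 with all). Asking for 10 counts in every library left 1247 genes at least 2-fold apart, since genes near absent in 1 population are then not tested. Fitting the RIPK2 populations alone without gRNA 1 replicate 3, an alternative chosen after seeing the data, gave 9377 calls (the cause was not tested). RLE factors gave 5424, DESeq2 5621, no filter 5284, the 6 RIPK2 libraries alone 4808 and leaving out mitochondrially encoded genes 5422. Same-numbered libraries of the RIPK2 populations did not deviate together (correlations of -0.15 to 0.07). Between control and RIPK2 libraries, same-numbered correlations ran from -0.048 to 0.44, highest for control replicate 3 with gRNA 1 replicate 3. Different-numbered ones ran from -0.46 to 0.32. These few values cannot settle whether the numbers pair libraries. With the replicate block, 5427 genes were called, and 1977 at least 2-fold apart. Of 3425 values of 204 genes, 3316 kept direction and side of the threshold. Reversed were log2 fold changes of CYP51A1 (-0.09 with all) at 0.32 without gRNA 1 replicate 3, 0.029 without gRNA 10 replicate 3 and 0.34 in the added alternative, of FOSB (3.72 with all) at -0.45 and -0.44 in the first and last of these, and of MTCO2P12 (2.91 with all) at -0.014 without gRNA 1 replicate 3. Leaving out 1 library gave -0.46 to 0.32 for CYP51A1, -0.45 to 4.28 for FOSB and -0.014 to 3.43 for MTCO2P12. Of 495 counts over the lists, 452 stayed within 1.5 times. In genes near 3 counts, depth limits any fold to a bound.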

Other observations

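Further lists showed smaller or divided differences, given as genes higher with gRNA 1 and with gRNA 10, and in parentheses without gRNA 1 replicate 3; over all genes tested the shares were 18.8% and 16.8% (22.0% and 23.1%). Of 49 integrin, laminin and collagen genes, 9 and 12 were called (11 and 21). ITGA7, a laminin receptor of muscle, was at 338, 330.1 and 329.6 CPM with gRNA 10 and 10.9, 11.3 and 26.8 with gRNA 1, with an edgeR log2 fold change of -4.35 (SE 0.30, adjusted p 2.18e-06) and of -4.92 without replicate 3. LAMA3, a chain of epithelial laminin, was also higher with gRNA 10 at -3.40 (-3.44 without replicate 3), while COL2A1, the cartilage collagen, was higher with gRNA 1 at 3.58 (3.53 without replicate 3). Of 27 plexins, semaphorins and neuropilins, 7 and 5 were called (8 and 12), with NRP1, a semaphorin and VEGF co-receptor, at 1.48 (1.58 without replicate 3). Of 30 tight junction and apical genes, 3 and 10 were called (4 and 12); CLDN4 was at -1.13 (-1.17 without replicate 3) and CLDN7 at 0.68 (0.65 without replicate 3). WNT feedback gave 9 and 7 of 34 (9 and 10), with the ligand WNT5A at 2.37 (2.46 without replicate 3) and the inhibitor DKK1 at -1.21 (-1.40 without replicate 3).

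PPARGC1A, a coactivator of mitochondrial biogenesis, had 382, 334 and 125 counts with gRNA 1, 127, 105 and 104 in the control and 8, 6 and 7 with gRNA 10, with an edgeR log2 fold change of 5.38 (SE 0.42, adjusted p 5.69e-06) and of 5.69 without replicate 3. In its list of mitochondrial stress and apoptosis, 4 and 3 of 24 were called (5 and 5), and CASP8, the initiator caspase, was at 1.74 (1.62 without replicate 3). Nuclear subunits of oxidative phosphorylation gave 3 and 3 of 73 (5 and 8), and the mitochondrially encoded genes 0 and 0 of 13 (1 and 0), with medians of 2.03 and -0.03. The BCL2 family gave 4 and 6 of 18 (3 and 6), with BAX at 1.19 (1.01 without replicate 3), and p53 targets 6 and 7 of 35 (7 and 8), with the antiproliferative BTG2 at -2.01 (-2.02 without replicate 3). NF-kB targets gave 5 and 3 of 26 (4 and 8), with the cytokine LIF at 1.55 (1.33 without replicate 3) and SOD2, of mitochondrial superoxide, at -0.80 (-0.62 without replicate 3). Hypoxia and glycolysis gave 4 and 8 of 32 (5 and 8), with EGLN3 at -1.98 (-1.88 without replicate 3). Antigen presentation gave 6 and 2 of 21 (8 and 3), with a median of 0.21 (0.20). The peptide transporter TAP2 lay on the side with fewer calls, at -1.09 (-1.01 without replicate 3). DNA methylation gave 2 and 5 of 22 (2 and 8), with the demethylase TET3 at -0.94 (-0.76 without replicate 3).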
